A study of Neurospora crassa with 12 samples.

Results

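The transcripts of 7 genes of the ambient pH signalling route of the filamentous ascomycete *Neurospora crassa* were followed in 12 RNA-seq libraries. The genes were chosen by name as the transcription factor gene *pac-3* (NCU00090) and the 6 *pal* genes, *pal-1* (NCU05876), *pal-2* (NCU00317), *pal-3* (NCU03316), *pal-6* (NCU03021), *pal-8* (NCU00007) and *pal-9* (NCU01996). These are 7 of the 9730 genes in the count tables, the rule used no measured value, and all 7 had enough counts to be tested in every comparison. The libraries came from a strain labelled Δ*mus-52* and a strain labelled Δ*pac-3*, each germinated in low-Pi (10 µM inorganic phosphate) or high-Pi (10 mM) medium, with 3 replicates, I to III, in each of the 4 groups. In the study's methods, Δ*mus-52* was the control, and Δ*pac-3* was made by replacing the *pac-3* open reading frame with a herbicide resistance marker in a *mus-52* knockout background, so the absence of *mus-52*, a gene of non-homologous end joining, was described as shared by both. Conidia were taken after 5 days from Δ*mus-52* and after 10 days from Δ*pac-3*, of which 3 days were in the dark and the remaining 2 or 7 days in ambient light at room temperature, and were germinated for 5 h at 30 °C in citrate-buffered medium of pH 5.4 with 44 mM sucrose. The age of the conidial culture and its time in light therefore differed with the strain, and their effects and that of the strain cannot be told apart.

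The Pal pathway carries information on ambient pH to a zinc finger transcription factor called PacC in *Aspergillus nidulans*, Rim101 in yeasts and PAC-3 in *N. crassa*. As known from *A. nidulans*, PalH and PalI are membrane proteins of the pH sensor at the plasma membrane, PalF is an arrestin-like protein that binds PalH, PalC and PalA are Bro1-domain proteins that link the sensor to the ESCRT machinery, and PalB is a calpain-like protease that makes the first cut in PacC at neutral to alkaline pH. The corresponding *N. crassa* genes are *pal-8* (PalH), *pal-9* (PalI), *pal-6* (PalF), *pal-3* (PalC), *pal-1* (PalA) and *pal-2* (PalB). In the NC12 assembly, the protein-coding gene *pac-3* lies on chromosome III at 2578245 to 2581438, as do *pal-8* at 2256790 to 2260238 and *pal-2* at 3420640 to 3424076. Chromosome I holds *pal-9* at 1736763 to 1740530, *pal-3* at 5286209 to 5288184 and *pal-6* at 8416509 to 8420379, and chromosome VII holds *pal-1* at 4133694 to 4136992. The regulation described in these proteins is largely a matter of protein cleavage, which read counts do not measure.

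The libraries held 20240314 to 82211503 counts assigned to genes. Replicates of one group correlated at 0.968 to 0.994 (Pearson's r across genes, which are not independent replicates), with the lowest values in Δ*pac-3* high-Pi. The transcript of *mus-52* (NCU00077) went against the label of the control. It had 487 to 1344 counts in the 6 libraries labelled Δ*mus-52*, a mean of 22.5 ± 2.36 CPM (SD, n = 3) in low-Pi and of 21.1 ± 1.44 CPM in high-Pi. The 6 libraries labelled Δ*pac-3* had only 0 to 36 counts. The 36 counts, or 1.04 CPM, were in replicate III of Δ*pac-3* high-Pi, while replicates I and II of that group had 4 and 1. The comparisons below are therefore between libraries named by their labels, which differed in *mus-52* transcript as well as in *pac-3*. CPM are counts per 1000000 counts after scaling by TMM factors over all 12 libraries, and these libraries are bulk samples, in which fewer cells of a kind and less RNA per cell cannot be told apart.

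The *pac-3* transcript, the target of the deletion, was lower in every library labelled Δ*pac-3* but was not absent. In low-Pi, it stood at 508, 513.9 and 523.1 CPM in replicates I, II and III labelled Δ*mus-52* and at 153.4, 134.1 and 158.3 CPM in those labelled Δ*pac-3*. In high-Pi, the values were 390.5, 352.6 and 448.7 CPM against 130.4, 183.1 and 153.1 CPM. The strains did not overlap in either medium, and the mean in Δ*pac-3* was 28.9% of that in Δ*mus-52* in low-Pi and 39.2% in high-Pi. These remaining reads amounted to 3000 to 12710 counts per library. A count per gene does not show where in the gene the reads lay, so how many fell inside the replaced open reading frame was not resolved.

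**Figure D1:**
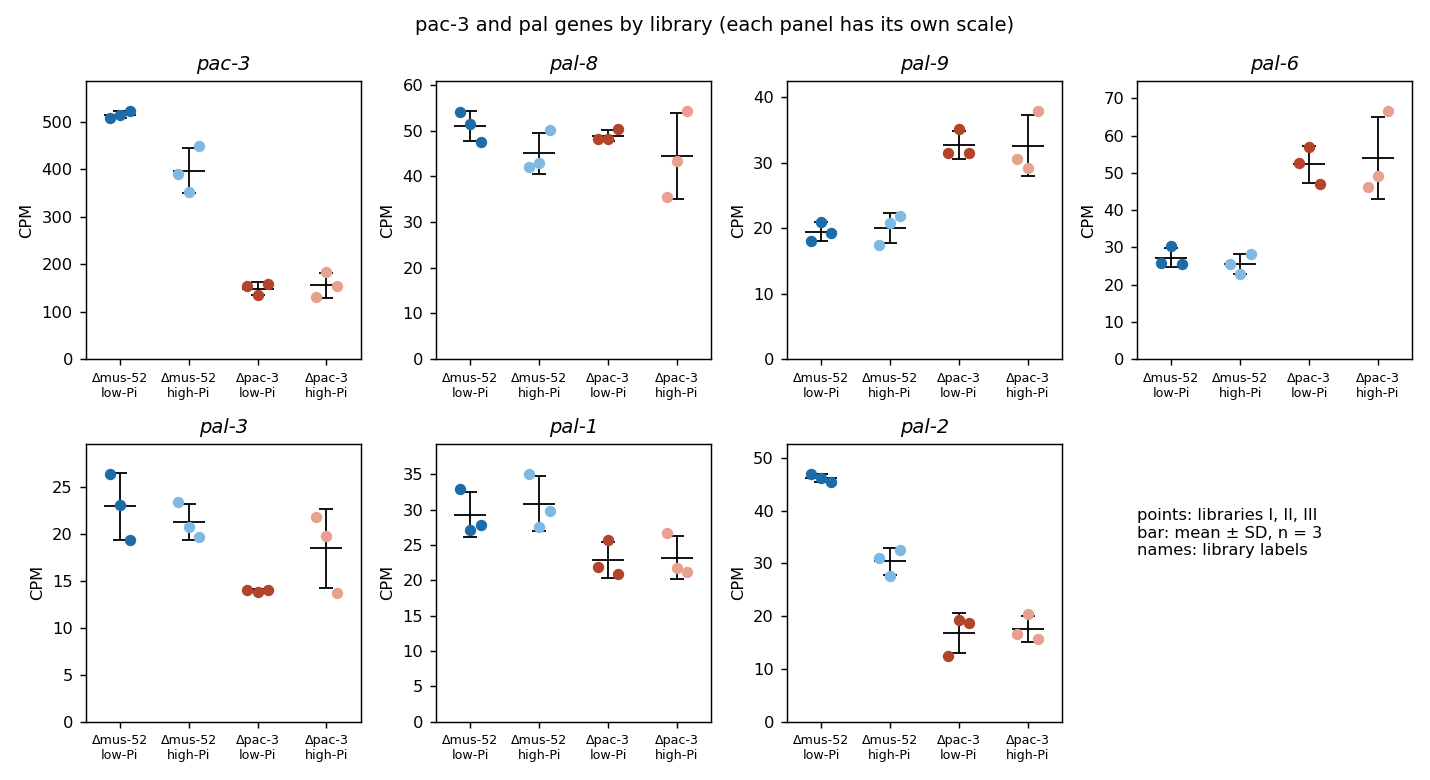
Scaled counts (CPM, vertical axes, linear from 0, each gene on its own scale) of pac-3 and the 6 pal genes in the 12 libraries, grouped by strain label and Pi. Points are libraries in the order I, II, III and bars are mean ± SD (n = 3). The strains are apart in both media for pac-3, pal-9, pal-6, pal-1 and pal-2, and overlap for pal-8.

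The loss of *pac-3* transcript passed the test in both media. The log2 fold change was -1.79 (SE 0.096, edgeR adjusted p = 4.1e-07), a 3.45-fold lower level, in low-Pi, and -1.36 (SE 0.17, edgeR adjusted p = 0.00135), 2.57-fold lower, in high-Pi. All adjusted p-values in this report come from edgeR's quasi-likelihood F test with Benjamini-Hochberg adjustment over all genes tested, and a gene was called at an adjusted p under 0.05. The genes beside *pac-3* on the chromosome were measured for comparison. Of the nearest gene on each side, NCU00089 was not called in either medium (log2 0.05 in low-Pi, 0.21 in high-Pi), while NCU00091 was down-regulated in both, with -0.52 (edgeR adjusted p = 0.00076) and -0.56 (edgeR adjusted p = 0.0143). The next genes out, NCU00088 and NCU00092, had -0.83 (edgeR adjusted p = 0.000163) and 0.39 (edgeR adjusted p = 0.0116) in low-Pi, and neither was called in high-Pi (-0.52 and -0.02).

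Among the *pal* genes, libraries labelled Δ*pac-3* had more transcript of the arrestin-like gene *pal-6* and of the sensor gene *pal-9*, and less of the protease gene *pal-2*, in both media. The Bro1-domain genes *pal-1* and *pal-3* were called lower in low-Pi and not called in high-Pi, and the sensor gene *pal-8* was not called in either medium. In low-Pi, 6 of the 7 members were called, 2 up-regulated and 4 down-regulated, or 5 of the 6 *pal* genes without *pac-3*. This stands against a background of 51.2% of the 8269 genes tested, of which 25.3% of all genes were higher and 25.9% lower, so a call by itself does not set the members apart. In high-Pi, 4 of the 7 were called, 2 in each direction, or 3 of the 6 *pal* genes. The background there was 35.4% of 8284 genes, 18.8% higher and 16.6% lower. With the study's further requirement of a log2 change of 1.5 or more in size, only *pac-3* in low-Pi remained (9.6% of all genes), and no member in high-Pi (9.14%). The 7 members had a median log2 fold change of -0.36 in low-Pi, against 0.02 over all genes tested, and of -0.22 in high-Pi, against -0.01. Without *pac-3*, the target of the deletion, the medians of the 6 *pal* genes were -0.21 and -0.12.

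The genes of the membrane sensor differed from each other. For *pal-8*, the 3 libraries labelled Δ*mus-52* had 54.1, 51.4 and 47.5 CPM in low-Pi and 42.0, 42.9 and 50.2 in high-Pi. The libraries labelled Δ*pac-3* had 48.2, 48.2 and 50.3 CPM in low-Pi and 35.5, 43.4 and 54.3 in high-Pi, within or around the range of the other strain. Its log2 fold change was -0.06 in low-Pi, with a 95% interval from -0.24 to 0.13, and -0.03 in high-Pi, with an interval from -0.43 to 0.37. A change within these limits cannot be told from none.

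For *pal-9*, the libraries labelled Δ*mus-52* had 18.1, 21.0 and 19.2 CPM in low-Pi and 17.4, 20.8 and 21.8 in high-Pi. Those labelled Δ*pac-3* had 31.5, 35.1 and 31.5 CPM in low-Pi and 30.6, 29.2 and 37.9 in high-Pi. Every Δ*pac-3* library was above every Δ*mus-52* library. The up-regulation was 1.69-fold in low-Pi (log2 0.76, SE 0.10, edgeR adjusted p = 0.000172) and 1.62-fold in high-Pi (log2 0.69, SE 0.16, edgeR adjusted p = 0.0131). The high-Pi call was lost without either of 2 libraries, since the edgeR adjusted p was 0.0604 without replicate I and 0.0504 without replicate II of Δ*mus-52* high-Pi.

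The arrestin-like gene *pal-6*, whose *A. nidulans* counterpart passes the signal on from the sensor, had the largest rise among the members. Its levels in Δ*mus-52* were 25.9, 30.2 and 25.6 CPM in low-Pi and 25.5, 22.8 and 28.2 in high-Pi. In Δ*pac-3* they were 52.6, 57.0 and 47.1 CPM in low-Pi and 46.3, 49.2 and 66.7 in high-Pi. The strains were far apart in both media, with the highest value of all in replicate III of Δ*pac-3* high-Pi. The fold change was 1.92 in low-Pi (log2 0.94, SE 0.11, edgeR adjusted p = 5.26e-05) and 2.11 in high-Pi (log2 1.08, SE 0.17, edgeR adjusted p = 0.00357).

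The Bro1-domain genes were lower in Δ*pac-3* low-Pi, and neither was called in high-Pi. For *pal-3*, the low-Pi libraries labelled Δ*mus-52* had 26.4, 23.1 and 19.4 CPM and those labelled Δ*pac-3* had 14.0, 13.9 and 14.1. These did not overlap, and the gene was 1.64-fold lower (log2 -0.71, SE 0.13, edgeR adjusted p = 0.00103). In high-Pi, the values were 23.4, 20.8 and 19.7 CPM against 21.8, 19.8 and 13.7. Here the strains overlapped, and the log2 fold change of -0.22 was not called (95% interval -0.66 to 0.23, edgeR adjusted p = 0.398). The annotated span of *pal-3* overlaps that of its neighbour NCU03315 by 139 nucleotides, so reads there may have been split or lost, depending on the counting. NCU03315 itself was not called, with -0.19 in low-Pi and -0.15 in high-Pi.

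For *pal-1*, the libraries labelled Δ*mus-52* had 32.9, 27.1 and 27.8 CPM in low-Pi and 35.1, 27.5 and 29.9 in high-Pi. Those labelled Δ*pac-3* had 21.9, 25.7 and 20.9 CPM in low-Pi and 26.6, 21.8 and 21.2 in high-Pi. The strains were apart in both media, though the nearest libraries were less than 2 CPM from each other. The gene was called in low-Pi (log2 -0.36, SE 0.12, edgeR adjusted p = 0.0285) and not in high-Pi (log2 -0.42, SE 0.15, edgeR adjusted p = 0.0656). Both sides of the threshold were close. The low-Pi edgeR adjusted p was 0.112 without replicate I of Δ*mus-52* and 0.1 without replicate III of Δ*pac-3*, and the high-Pi edgeR adjusted p was 0.0294 without replicate I of Δ*pac-3*. In a fit of all 12 libraries together, the calls turned round, the edgeR adjusted p being 0.0518 for low-Pi and 0.0274 for high-Pi.

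The calpain-like protease gene *pal-2* had the largest fall among the *pal* genes. In low-Pi it had 47.0, 46.2 and 45.5 CPM in Δ*mus-52* and 12.4, 19.3 and 18.7 CPM in Δ*pac-3*, a 2.77-fold lower level (log2 -1.47, SE 0.16, edgeR adjusted p = 3.43e-05). In high-Pi it had 31.0, 27.6 and 32.6 CPM in Δ*mus-52* and 16.6, 20.5 and 15.7 CPM in Δ*pac-3*, 1.74-fold lower (log2 -0.80, SE 0.15, edgeR adjusted p = 0.0063). No Δ*pac-3* library reached the lowest Δ*mus-52* library. The level in Δ*pac-3* was about the same in both media, while that in Δ*mus-52* was lower in high-Pi.

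Libraries of the strains did not overlap for 6 members in low-Pi and 5 in high-Pi, or 5 and 4 of the 6 *pal* genes without *pac-3*. Over all genes tested, this was the case for 59.7% and 51.5%.

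**Figure D2:**
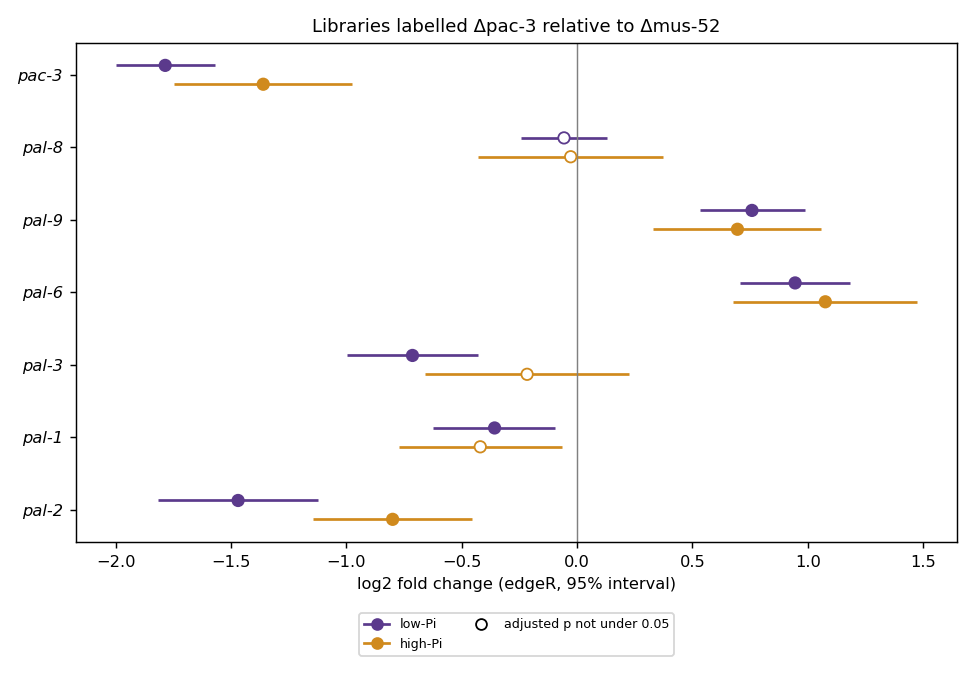
Log2 fold change (horizontal axis) of each member between the strains (Δpac-3 over Δmus-52, by label), in low-Pi (purple) and high-Pi (orange), with 95% intervals from edgeR and n = 3 libraries per group. Filled points passed the adjusted p threshold. pal-9 and pal-6 lie to the right of 0 in both media, pac-3 and pal-2 to the left.

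Markers of conidia and conidiation moved with the strain as well. Of the 6 markers *con-6*, *con-8*, *con-10*, *eas*, *fl* and *ccg-1*, 4 rose and 1 fell in Δ*pac-3* low-Pi, where 51.2% of all genes were called, and 3 rose in Δ*pac-3* high-Pi, where 35.4% were. The one that fell was *ccg-1* (NCU03753), 5.08-fold lower in low-Pi (log2 -2.35, edgeR adjusted p = 8.61e-06). The hydrophobin gene *eas* (NCU08457) rose by 5.62 on the log2 scale in low-Pi and 4.01 in high-Pi, from 5.81 ± 1.87 and 5.17 ± 1.88 CPM in Δ*mus-52* to 290 ± 181 and 83.3 ± 54.3 in Δ*pac-3*. The summed level of the 6 markers was 193 to 239 CPM in Δ*mus-52* low-Pi and 175 to 535 in Δ*pac-3* low-Pi. In high-Pi it was 77.5 to 85.0 in Δ*mus-52* and 171 to 321 in Δ*pac-3*. The low-Pi sums mix opposite changes. Most of the sum in Δ*mus-52* low-Pi was *ccg-1*, at 184 ± 20.5 CPM against 36.3 ± 10.9 in Δ*pac-3* low-Pi, where *eas* was the largest part. The overlap of the low-Pi sums therefore does not show that the other markers were level. None of the markers was at 0 in any group. The part of these markers, and of the age and light exposure of the conidial cultures, in the differences between the strains was not tested.

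The response to Pi was compared within each strain. In Δ*mus-52*, *pac-3* and *pal-2* were down-regulated in high-Pi relative to low-Pi, and the other 5 members were not called. *pac-3* fell by 0.40 on the log2 scale (SE 0.10, edgeR adjusted p = 0.0153) and *pal-2* fell by 0.63 (SE 0.09, edgeR adjusted p = 0.000827), which is 1.32-fold and 1.55-fold lower. The high-Pi libraries lay below all low-Pi libraries for both genes. Groups without overlap, in either direction, were seen for 48.3% of all genes tested. These 2 of 7 members stand against 32.6% of 8190 genes called, 18.1% in this direction. The call for *pac-3* was lost without either of 2 libraries, since the edgeR adjusted p was 0.0516 without replicate II of Δ*mus-52* low-Pi and 0.076 without replicate II of Δ*mus-52* high-Pi. It was also lost in the fit of all 12 libraries (edgeR adjusted p = 0.0657), in which *pal-2* was the member called. The remaining log2 changes ran from -0.20 for *pal-8* (95% interval -0.43 to 0.02) to 0.05 for *pal-1* (95% interval -0.21 to 0.31).

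In Δ*pac-3*, no member was called between the media, and neither was any of the 8348 genes tested by edgeR (0%). Of these genes, 413 had an unadjusted edgeR p under 0.05, near the share that this threshold passes with no change. DESeq2 called 22 of 9376 genes (0.235%), with 0 members among them. The log2 changes of the members ran from -0.14 for *pal-8* to 0.40 for *pal-3*, and every member's libraries overlapped between the media, against 10.8% of all genes without overlap. The interval for *pal-2* was -0.41 to 0.55 and that for *pac-3* was -0.29 to 0.42. Scatter between replicates, as edgeR's common biological coefficient of variation, came to 0.208 here, against 0.12 for Pi in Δ*mus-52*. The larger spread lay in Δ*pac-3* high-Pi and not in both Δ*pac-3* groups. The same coefficient came to 0.208 for the strain in high-Pi and 0.121 for the strain in low-Pi. Replicates correlated at 0.968 to 0.981 in Δ*pac-3* high-Pi and at 0.989 to 0.994 in Δ*pac-3* low-Pi.

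Whether the strains differed in their response to Pi was tested by an interaction term over the 12 libraries. No member was called, against 10.5% of 8465 genes. The largest difference was that of *pal-2*, at 0.68 on the log2 scale (SE 0.23, 95% interval 0.18 to 1.17), with an unadjusted p of 0.0111 and an edgeR adjusted p of 0.0759. For *pac-3* it was 0.44 (edgeR adjusted p = 0.151) and for *pal-3* 0.51 (edgeR adjusted p = 0.185), and the other 4 *pal* genes were between -0.05 and 0.15. DESeq2 put *pal-2* past the threshold, with an adjusted p of 0.0392. Leaving out replicate I of Δ*pac-3* high-Pi brought *pac-3* past it (0.55, edgeR adjusted p = 0.0453), and leaving out replicate III of that group brought *pal-3* past it (0.69, edgeR adjusted p = 0.0367). The fall of *pac-3* and *pal-2* in Δ*mus-52* is thus not shown to be particular to that strain. The strain and Pi comparisons share their libraries in pairs, so their values for a gene are not independent of each other.

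**Figure D3:**
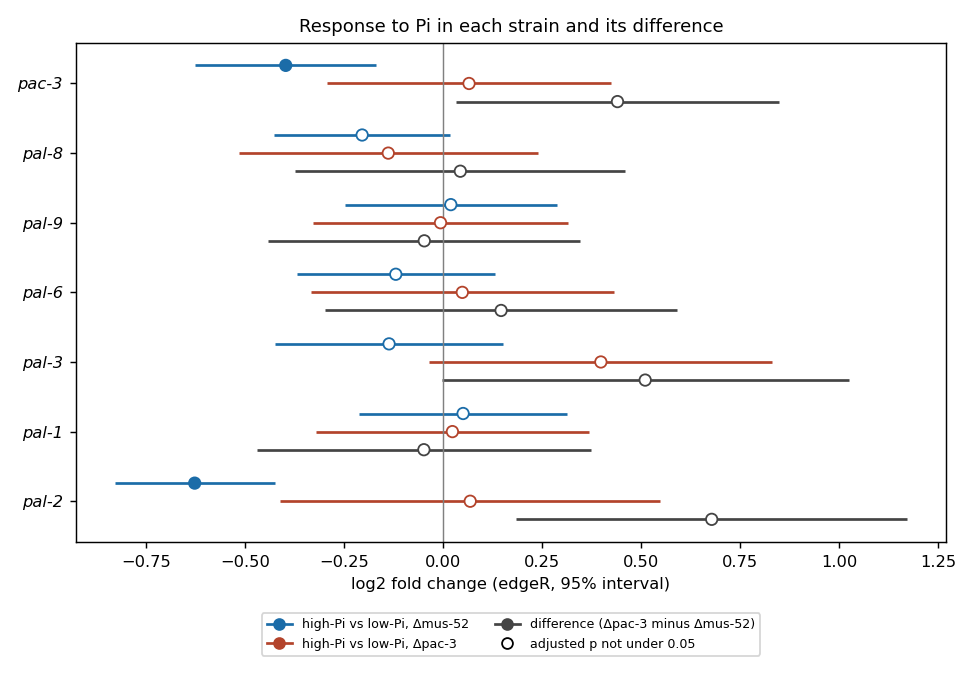
Log2 fold change (horizontal axis) of each member in high-Pi relative to low-Pi in libraries labelled Δmus-52 (blue) and Δpac-3 (red), and the difference between the strains in this response (grey), with 95% intervals from edgeR (n = 3 libraries per group). Filled points passed the adjusted p threshold, which only pac-3 and pal-2 in Δmus-52 did.

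With TMM scaling, opposite changes among the *pal* genes left their sum nearly level. With total counts only, their sum was higher in Δ*pac-3* than in Δ*mus-52*, more so in high-Pi, so the level sum depends on the scaling. There, mean CPM in high-Pi was 58.4 against 23.2 for *pal-6*, and 19.1 against 27.7 for *pal-2*. With TMM scaling, the *pal* genes together had 184.9 to 204.5 CPM in Δ*mus-52* low-Pi and 180.6 to 199.3 in Δ*pac-3* low-Pi. In high-Pi they had 162.4 to 182.3 in Δ*mus-52* and 177.5 to 209.6 in Δ*pac-3*. The make-up of that sum differed, as the shares within each library show without any scaling between libraries. These shares were examined after the fold changes were known and are given as a description. The protease gene *pal-2* made up 23% to 24.6% of the *pal* counts in Δ*mus-52* low-Pi, 17.0% to 17.9% in Δ*mus-52* high-Pi, 6.87% to 10.2% in Δ*pac-3* low-Pi and 7.5% to 11.1% in Δ*pac-3* high-Pi. The arrestin-like gene *pal-6* went the other way, from 12.7% to 15.4% over the 6 Δ*mus-52* libraries to 25.8% to 31.8% over the 6 Δ*pac-3* libraries. There were 0.551 to 0.864 *pal-6* counts for each *pal-2* count in Δ*mus-52* and 2.40 to 4.24 in Δ*pac-3*. The 2 sensor genes also shifted against each other, with 0.334 to 0.486 *pal-9* counts for each *pal-8* count in Δ*mus-52* and 0.627 to 0.861 in Δ*pac-3*.

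**Figure D4:**
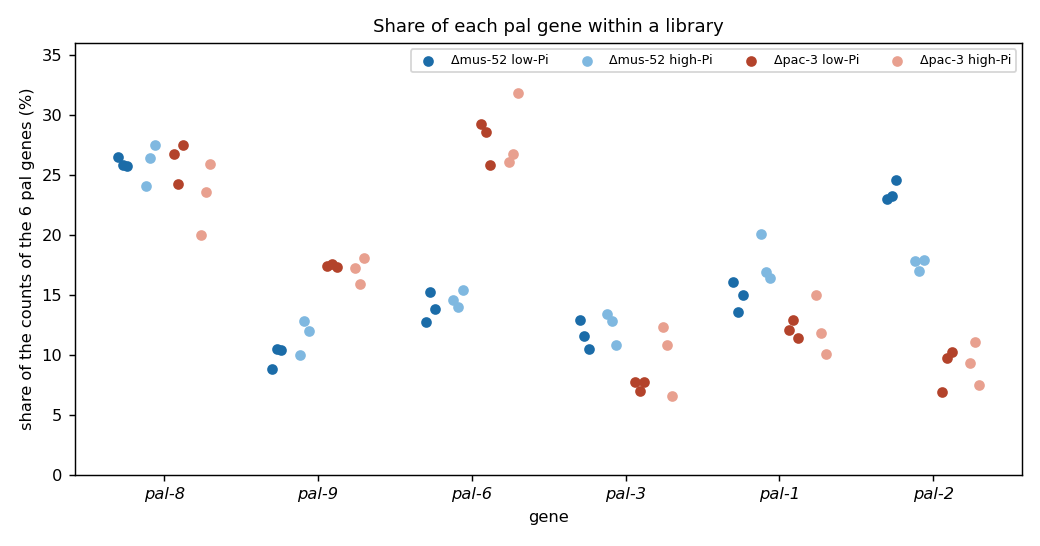
Share (vertical axis, %) of each pal gene in the counts of all 6 pal genes within a library, for the 12 libraries coloured by strain label and Pi. Points are single libraries. The share of pal-6 is higher and that of pal-2 lower in every Δpac-3 library than in any Δmus-52 library, and that of pal-8 overlaps.

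Per length of annotated span, *pac-3* had far more counts than any *pal* gene in every group. In Δ*pac-3*, these were the remaining reads over the full span of a gene whose open reading frame was described as replaced. The *pac-3* value there is therefore not the level of an intact gene. The levels here are CPM per kilobase of annotated gene span, introns included. In Δ*mus-52* low-Pi, *pac-3* had 161.2 ± 2.38 (SD, n = 3), followed by *pal-8* at 14.8 ± 0.96, *pal-2* at 13.4 ± 0.23, *pal-3* at 11.6 ± 1.79, *pal-1* at 8.87 ± 0.96, *pal-6* at 7.04 ± 0.67 and *pal-9* at 5.15 ± 0.39. Neighbours in this order overlapped in their ranges for *pal-2* and *pal-3* and for *pal-3* and *pal-1*. In Δ*mus-52* high-Pi, *pal-2* stood at 8.85 ± 0.74, after *pal-8* (13.1 ± 1.30), *pal-3* (10.8 ± 0.96) and *pal-1* (9.34 ± 1.18), and overlapped with *pal-1*, which in turn overlapped with *pal-3*.

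In Δ*pac-3* low-Pi, the remaining *pac-3* reads came to 46.5 ± 4 CPM per kilobase of its full span. The *pal* genes ran from *pal-8* at 14.2 ± 0.35 and *pal-6* at 13.5 ± 1.29, whose ranges overlapped. Below these were *pal-9* at 8.68 ± 0.56, *pal-3* at 7.08 ± 0.06, *pal-1* at 6.92 ± 0.77 and *pal-2* at 4.89 ± 1.11. In Δ*pac-3* high-Pi, *pac-3* had 48.7 ± 8.27 and the *pal* genes ran from *pal-6* at 14.0 ± 2.85 to *pal-2* at 5.12 ± 0.74, with overlapping ranges between all neighbours in the order except *pal-1* and *pal-2*. The protease gene was thus at the lower end of the *pal* genes in Δ*pac-3*, and the sensor gene *pal-9* was at the lower end in Δ*mus-52*.

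The genes next to the *pal* genes were read for the same comparison. Of the 15 annotated neighbours of the members found in the count tables, 14 had enough counts to be tested, and 2 of these rose and 4 fell in Δ*pac-3* low-Pi, and 2 rose and 2 fell in Δ*pac-3* high-Pi. These 6 and 4 of 14 compare with 51.2% and 35.4% of all genes. Beside *pal-8*, which was not called, NCU00006 rose by 1.01 in low-Pi (edgeR adjusted p = 6.79e-06) and by 0.64 in high-Pi (edgeR adjusted p = 0.00373) on the log2 scale. Beside *pal-6*, which rose, NCU03020 fell by 0.46 (edgeR adjusted p = 0.0012) and by 0.82 (edgeR adjusted p = 0.0013). The genes on either side of *pal-2*, NCU16677 and NCU00318, had 0.23 and 0.05 in low-Pi and were not called there, and in high-Pi NCU16677 rose by 0.74 (edgeR adjusted p = 0.0147), while NCU00318 was not called (-0.21).

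The genes whose log2 CPM followed each member most closely over the 12 libraries were found among 8465 genes by Pearson's r, given here as a description because the 12 points share the split by strain. For *pac-3* they were NCU00796 (r = 0.996) and NCU08184 (r = 0.99), and for *pal-9* NCU00689 (r = 0.987) and NCU05024 (r = 0.98). NCU16334 (r = 0.981) and NCU07523 (r = 0.975) were closest to *pal-6*, the former with a mean of only 0.193 CPM in Δ*mus-52* low-Pi, and NCU09451 and NCU02386 (both r = 0.971) to *pal-2*. The values were lower for *pal-3*, with NCU02475 (r = 0.955) and NCU02523 (r = 0.945), and *pal-1*, with NCU01539 (r = 0.939) and NCU07558 (r = 0.935). They were lowest for *pal-8*, the member not called between the strains in either medium, with NCU01242 (r = 0.906) and the DNA repair gene *uvs-2* (NCU05210, r = 0.892). The members themselves were left out of this search, so how closely they followed each other was not examined.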

How the data were processed

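The libraries were 100 bp paired-end reads from total RNA of germinated mycelium. Per the study's methods, the authors trimmed the reads at a Phred score of 20, checked them with FastQC and aligned them with Bowtie2. The reference was the NC12 assembly of strain OR74A, and raw counts per gene were deposited. The versions, FastQC 0.11.7 and Bowtie2 2.3.4, are not given in those methods and come from elsewhere. The read counter, its strand setting and the gene models counted are not given in the sources used here. Tables of the authors' own comparisons (strain means, fold changes and p-values) were not used. No column of per-sample values was left without a sample (0 columns).

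The counts were fitted with edgeR 4.0.16 (quasi-likelihood F test, R 4.3.3) for each pair of groups, after filterByExpr (minimum count 10, minimum total 15) and TMM scaling. The prior count was 0.125. The interaction was fitted over all 12 libraries. Standard errors are the fitted log2 fold change divided by the square root of F, and 95% intervals use the test's degrees of freedom. DESeq2 1.42.0, other scalings, no filter, a replicate block, the study's fold threshold and leaving out each library were the alternatives. The fits were run on simulated data in which only a small set of genes changed, so scaling under broad change was not tested. Figures were drawn with matplotlib 3.10.9. With 3 libraries per group, the p-values set the difference between groups against the spread between these biological replicates, which edgeR moderates across genes. Total counts were 20240314 to 82211503 per library, and the members had 310 to 23241 counts per library. The totals exceed the mapped reads that the study lists for each library, so a count need not be an independent fragment.

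RefSeq's NC12 annotation gave symbols, positions, neighbours and span lengths, and 9729 of the 9730 gene IDs matched it. The genes named were the members, the 2 genes on each side of *pac-3* and 1 on each side of each *pal* gene, *mus-52*, actin and β-tubulin, 6 conidial markers and the 2 genes most correlated with each member. The members and lists were chosen with earlier results of these data known. Lists of ESCRT, arrestin, calpain, melanin and C2H2 zinc finger genes were also planned by gene description, which the annotation used here does not hold, and were not analysed, apart from the tyrosinase gene. No sequence tables were used here.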

Additional observations from a re-analysis of the deposited data

Results flagged for a closer look

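Both results below are genes whose response to Pi differed between the strains by the interaction term, and neither is a member of the pH signalling set. NCU03022, next to *pal-6*, had an interaction of 1.10 on the log2 scale (edgeR adjusted p = 0.0413). It fell in high-Pi in Δ*mus-52*, from 32.5 ± 6.83 to 14.8 ± 4.93 CPM (SD, n = 3), and had 23.3 ± 2.38 and 22.8 ± 3.13 CPM in Δ*pac-3*. The gene *ccg-1* (NCU03753), listed among the 6 conidial markers, had an interaction of 3.12 on the log2 scale (edgeR adjusted p = 0.0012). It went from 184 ± 20.5 to 45.0 ± 5.81 CPM in Δ*mus-52* and from 36.3 ± 10.9 to 76.5 ± 30.6 CPM in Δ*pac-3*. The other 5 markers were not called in the interaction, so the result for *ccg-1* does not stand for the markers as a set.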

How the results depend on the processing

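The called directions of *pac-3*, *pal-2*, *pal-6* and *pal-9* between the strains were the same under every alternative run, and what changed was which weaker calls passed. With the study's fold threshold, the members called went to 1 for the strain in low-Pi, 0 for the strain in high-Pi and 0 for Pi in Δ*mus-52*. Scaling to actin and β-tubulin, where actin itself rose with Pi in Δ*mus-52*, called 5 members in that comparison, and the fit of all 12 libraries called 1, with *pac-3* lost. DESeq2 called 1 member in the interaction. Leaving out 1 library at a time gave 5 to 6 members in the low-Pi and 3 to 5 in the high-Pi strain comparison, 1 to 2 for Pi in Δ*mus-52*, 0 for Pi in Δ*pac-3* and 0 to 1 for the interaction. In low-Pi, *pal-1* was not called with total counts (edgeR adjusted p = 0.276) or in the fit of all 12 libraries (edgeR adjusted p = 0.0518), a fit that called it in high-Pi (edgeR adjusted p = 0.0274), and in high-Pi *pal-2* was not called with the reference genes (edgeR adjusted p = 0.0528). Total-count scaling moved the median of all genes to 0.19 for the low-Pi and 0.25 for the high-Pi strain comparison, and the reference genes moved it to 0.15 for the latter, -0.23 for Pi in Δ*mus-52* and 0.17 for the interaction. Over all genes, the share called moved from 35.4% to 18.7% and 19.1% for the strain in high-Pi without replicate II or I of Δ*mus-52* high-Pi. For Pi in Δ*mus-52* it moved from 32.6% to 19.5% in the fit of all 12 libraries and to 20.5% without replicate II of either group. For the interaction it moved from 10.5% to 16.1% with DESeq2 and to between 4.59% and 18.6% with 1 library left out. For Pi in Δ*pac-3* it moved from 0% to 0.369% (31 genes) without replicate III of Δ*pac-3* high-Pi.

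Whether replicate numbers paired the samples was not settled. The deviations of same-numbered libraries correlated at -0.162 to 0.357, with a median of 0.0875, and 8 of 18 pairs were over 0.1. Within a strain, all were positive, at 0.254, 0.082 and 0.102 for I, II and III in Δ*mus-52* and 0.357, 0.05 and 0.118 in Δ*pac-3*. Pairs of unlike number ran from -0.173 to 0.06 and from -0.267 to 0.217. The negative same-numbered pairs were all between strains. Over all genes, a replicate block moved the share called from 32.6% to 39.7% for Pi in Δ*mus-52* and from 10.5% to 13.2% for the interaction. With the replicate block, 6, 5, 2, 0 and 0 members were called for the strain in low-Pi and in high-Pi, Pi in Δ*mus-52* and in Δ*pac-3*, and the interaction, with *pal-1* added in high-Pi (edgeR adjusted p = 0.0409).

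Signs changed only for log2 values that were not called. With total counts, *pal-8* was 0.12 in low-Pi, *pal-3* was 0.05 and *pal-8* 0.23 in high-Pi, *pal-9* was -0.006 for Pi in Δ*mus-52* and 0.003 for Pi in Δ*pac-3*, and in the interaction *pal-1* was 0.019 and *pal-9* 0.009. With the reference genes, *pal-8* was 0.14 in high-Pi, *pal-1* -0.17 and *pal-9* -0.20 for Pi in Δ*mus-52*, *pal-1* -0.054 and *pal-6* -0.015 for Pi in Δ*pac-3*, and *pal-1* 0.12 and *pal-9* 0.13 in the interaction. When 1 library was left out, the values ran from -0.19 to 0.11 for *pal-8* in high-Pi, and for Pi in Δ*mus-52* from -0.037 to 0.15 for *pal-1* and -0.029 to 0.13 for *pal-9*. For Pi in Δ*pac-3* they ran from -0.073 to 0.18 for *pac-3*, -0.082 to 0.12 for *pal-1*, -0.11 to 0.18 for *pal-2*, -0.13 to 0.15 for *pal-6*, -0.31 to 0.003 for *pal-8* and -0.13 to 0.063 for *pal-9*. For the interaction they ran from -0.16 to 0.042 for *pal-1*, -0.034 to 0.24 for *pal-6*, -0.13 to 0.18 for *pal-8* and -0.17 to 0.045 for *pal-9*. The cause was not tested. Without length scaling *pal-3* moved down to rank 6 or 7 in every group, and *pac-3* kept the first rank, in Δ*pac-3* by its remaining reads.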

Other observations

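The tyrosinase gene *T* (NCU00776), the only gene of the planned melanin list that was read, had 0 counts in all 12 libraries. This allows a level of up to 0.0362 to 0.154 CPM by the limit of 3 counts per library (counting error only). Other genes of melanin synthesis were not read, so this holds for *T* only.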
